A study of Arabidopsis thaliana with 6 samples.

Results

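Beta-tubulin pairs with alpha-tubulin to form the subunit from which microtubules are built. In plant cells the microtubules under the plasma membrane guide where cellulose is laid down, and so the direction in which a cell elongates, and those of the spindle and phragmoplast carry out cell division. Arabidopsis thaliana encodes beta-tubulin in a family of 9 genes, TUB1 to TUB9, whose transcripts are known to differ in abundance between organs and to respond to light, cold and hormones. The family was taken by gene ID, as 9 of the 32548 genes in the deposited table, and all 9 passed the filter on low values. The IDs are AT1G75780 (TUB1), AT5G62690 (TUB2), AT5G62700 (TUB3), AT5G44340 (TUB4), AT1G20010 (TUB5), AT5G12250 (TUB6), AT2G29550 (TUB7), AT5G23860 (TUB8) and AT4G20890 (TUB9). The family was selected on its values across the 3 genotypes in these same libraries, so levels and changes of the 9 genes are given as a description, no p-value is attached to any of them, and a member is said to have fallen or to have been called only to record what the fit across all genes returned.

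RNA-seq was performed on whole 12-day-old seedlings grown on MS plates at 22 °C in days of 16 h light and 8 h darkness, with 2 libraries for each of 3 genotypes. The wild type was Col-0. The hac1hac5 seedlings (hac1-/-hac5-/-) are mutated in HAC1 and HAC5, histone acetyltransferases of the CBP/p300 type, and the med8med25 seedlings (med8-/-med25-/-) are mutated in MED8 and MED25, subunits of the Mediator complex, which joins transcription factors to RNA polymerase II. The alleles are not given in the sources used here, and the labels do not say whether both libraries of a genotype were grown apart, so SE and calls reflect how far the libraries at hand differ, and that variation may be technical.

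Values are the authors' normalized counts, and the whole reads behind them, which could be recovered, came to between 24.88 and 36.75 M per library. Transcripts of MED8 and MED25 fell in med8med25 (log2 changes -1.43 and -2.15). HAC1 changed by -0.41 in hac1hac5, a call lost in 4 of 15 alternatives, and HAC5 was not called, so transcript levels check that label only in part. All 4 seedling shoot markers and all 7 root markers had values above 0 in every library. Their summed normalized counts moved between genotypes. The shoot sum was 1457000 and 1493000 in Col-0 libraries, against 1088000 and 1062000 for hac1hac5 and 1158000 with 912400 for med8med25. The root sum was 6733 and 6245, then 4205 and 4398, then 8644 and 9684 in the same order.

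The 9 genes lie on chromosomes 1, 2, 4 and 5, and TUB2 and TUB3 are tandem neighbours on chromosome 5. Their coding sequences are alike enough to matter for reads of 50 bases, which is why the first 50 coding bases of every member are shown here. They were read from the RefSeq TAIR10.1 assembly, and the authors' build is given as TAIR10 in the submitters' processing notes. Capitals mark the 16 places at which the 9 genes are not all the same, and the other 34 places, in lower case, are shared by all of them.
TUB1 (chr1:28453553-28453602, minus strand): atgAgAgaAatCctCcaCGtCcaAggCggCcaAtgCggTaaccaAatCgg
TUB2 (chr5:25181560-25181609, plus strand): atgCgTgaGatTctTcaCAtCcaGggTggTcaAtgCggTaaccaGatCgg
TUB3 (chr5:25184501-25184550, plus strand): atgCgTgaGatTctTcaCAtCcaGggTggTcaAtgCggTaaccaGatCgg
TUB4 (chr5:17860945-17860994, minus strand): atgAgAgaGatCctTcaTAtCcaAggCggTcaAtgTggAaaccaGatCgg
TUB5 (chr1:6940432-6940481, minus strand): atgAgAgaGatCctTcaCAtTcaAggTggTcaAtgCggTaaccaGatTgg
TUB6 (chr5:3962922-3962971, minus strand): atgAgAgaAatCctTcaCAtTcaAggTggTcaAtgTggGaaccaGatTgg
TUB7 (chr2:12645883-12645932, minus strand): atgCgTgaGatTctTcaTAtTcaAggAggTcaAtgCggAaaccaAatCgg
TUB8 (chr5:8042962-8043011, plus strand): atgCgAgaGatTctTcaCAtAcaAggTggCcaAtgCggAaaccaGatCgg
TUB9 (chr4:11182218-11182267, plus strand): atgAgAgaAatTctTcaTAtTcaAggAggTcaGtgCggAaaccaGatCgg

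TUB2 and TUB3 share this start letter for letter. Over their whole coding sequences they were 97.6% identical, and the next closest pair, TUB1 and TUB5, was 87.4% identical, while TUB8 and TUB9 were 78.7% identical. Of the 50-base windows along the TUB2 transcript, 77.7% occur nowhere else in the genome, and 22.3% (418 windows) also occur in TUB3. In TUB3 78.0% are unique. In the other 7 genes between 99.8% and 100% of windows are unique. How the authors assigned reads that match several genes is not given in the sources used here, so levels of TUB2 and TUB3 are uncertain and cannot be fully told apart. Parts of 4 members overlap exons of other annotated genes, over 620 bases in TUB1, 83 in TUB6, 414 in TUB7 and 457 in TUB9, and without the strand setting reads there cannot be assigned to either gene.

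Per length, TUB4 and TUB6 were the most abundant members in Col-0 and TUB1 the least. Levels given here are normalized counts per kb of annotated exon. TUB4 stood at 6618 ± 190 and TUB6 at 6104 ± 175 (SD, n = 2). TUB2 and TUB3 followed at 4037 ± 156 and 3920 ± 218, and the ranges of their libraries overlapped, as did those of TUB7 (1619 ± 105) and TUB8 (1546 ± 49.3). TUB5 lay between those pairs at 3560 ± 174, and its higher library (3683) was just under the lower library of TUB3 (3766). TUB9 came next at 1393 ± 68.7. TUB1, a member known to be light-regulated in seedlings, stood at 311.9 ± 11.1, far below the others. Behind the TUB1 values were 567 and 537 reads in the Col-0 libraries, and behind those of TUB4 12056 and 11306.

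The order changed little among genotypes at its ends. Per kb of exon, TUB4 was highest and TUB1 lowest in all 3 genotypes. In hac1hac5 TUB6 (3453 ± 115 per kb) and TUB2 (3416 ± 250 per kb) overlapped, and in med8med25 TUB2 (4030 ± 434), TUB6 (3701 ± 437) and TUB3 (3690 ± 397) each overlapped the next in order. By this measure TUB6 and TUB2 were without overlap in the wild type alone. Per kb of unique windows, computed for Col-0 only, TUB2 stood at 5328 and TUB3 at 5157, beside 6808 for TUB4 and 6263 for TUB6. That measure applies if reads shared by TUB2 and TUB3 were not counted, which is not stated. The places of TUB2 and TUB3 beside TUB4 and TUB6 are therefore uncertain in all 3 genotypes.

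**Figure D1:**
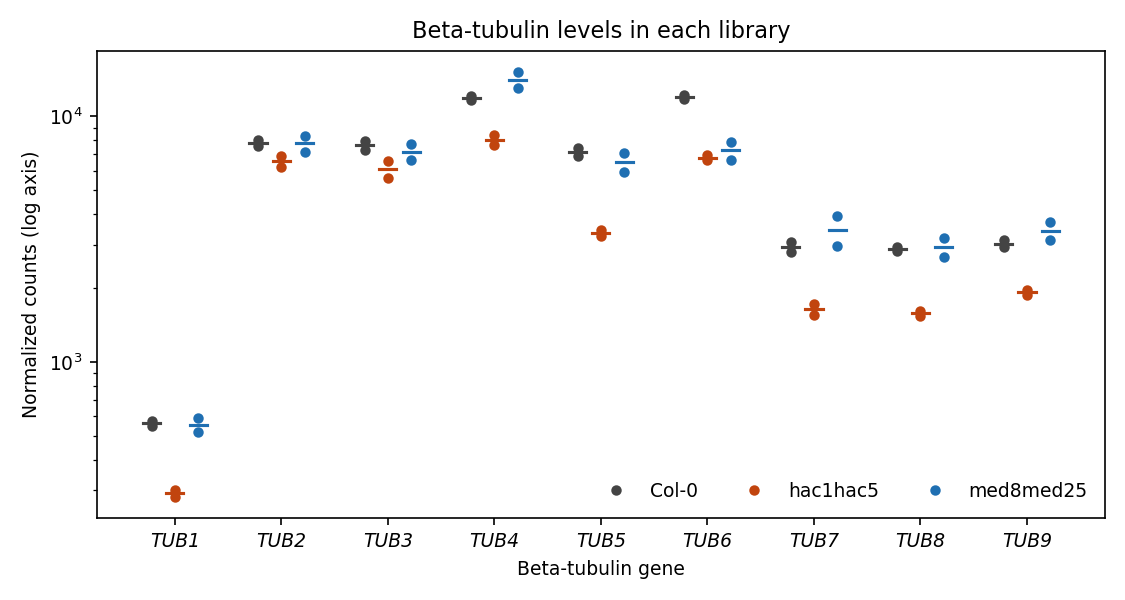
Normalized counts (log axis) of each beta-tubulin gene, with 1 point per library and a short line at the mean of the 2 libraries of a genotype. The hac1hac5 libraries lie below both Col-0 libraries for all 9 genes, while the med8med25 libraries lie below both Col-0 libraries for TUB6 alone.

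Setting hac1hac5 beside Col-0 addresses transcript levels in seedlings labelled as mutated in HAC1 and HAC5. The beta-tubulin pool was smaller in hac1hac5: the 9 genes summed to 54330 and 57460 normalized counts in Col-0 and to 37790 and 34770 in hac1hac5, or 64.9% of the wild-type mean. In bulk seedlings fewer cells of a type and less RNA per cell cannot be told apart. Every member had both hac1hac5 libraries below both Col-0 libraries, as did 39.2% of all genes tested, and 8 of 9 were called lower, where 21.0% of all 23898 genes tested were called lower, 17.4% higher and 38.4% in either direction. Genes were called at an adjusted p under 0.05. Among the 10406 genes whose mean value lies within the range of the members, 29.3% were called lower. Because the family was chosen with this comparison known, nothing is read from these counts. The median log2 change was -0.82 for the members and -0.02 for all genes tested.

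TUB5 and TUB1 had the largest decreases. TUB5 had 6925 and 7421 normalized counts in the Col-0 libraries against 3458 and 3254 in those of hac1hac5, a log2 change of -1.10 (SE 0.10), or 2.14-fold lower. TUB1 had 547.9 and 576.2 in the wild type against 301.6 and 283.1 in the mutant (log2 change -0.94, SE 0.10). For both genes the genotypes were far apart beside the spread of their libraries. TUB1 and TUB5 are also the pair closest in coding sequence after TUB2 and TUB3 (87.4% identical). TUB4 and TUB9, which fell by less, were nearly as alike (87.3%), and a link of sequence with change was not tested.

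TUB8, TUB7, TUB6 and TUB9 came next, at log2 changes between -0.87 and -0.66. TUB8, whose promoter is known to be active in vascular tissue, had 2819 and 2949 in the wild type against 1620 and 1545 in the mutant (log2 change -0.87, SE 0.09). TUB7 had 2805 and 3075 in the wild type against 1730 and 1554 in the mutant (-0.84, SE 0.13). The decreases of these 2 genes differed by less than their SE. TUB6, described in earlier work as reduced by cold, had 11760 and 12240 in the wild type against 6949 and 6629 in the mutant (-0.82, SE 0.09). TUB9, known for its transcripts in pollen, had 2930 and 3142 in the wild type against 1869 and 1972 in the mutant (-0.66, SE 0.09), and it was the one member with its higher mutant value in the second hac1hac5 library.

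TUB4, TUB3 and TUB2 had the smallest decreases. TUB4 had 11650 and 12130 in the wild type against 8380 and 7656 in the mutant (log2 change -0.57, SE 0.10). TUB3 had 7332 and 7932 in the wild type against 6561 and 5632 in the mutant (-0.33, SE 0.11), and TUB2 had 7567 and 7991 in the wild type against 6924 and 6242 in the mutant (-0.24, SE 0.10). The genotypes did not overlap in any of these 3 genes, but TUB2 was not called. The call of TUB3 was lost with total scaling (-0.15), with median-of-ratios scaling (-0.31), and on leaving out library 1 (-0.38) or 2 (-0.27) of Col-0 or library 2 of hac1hac5 (-0.22). TUB2 was called when the spread was taken from hac1hac5 and Col-0 alone, and without either med8med25 library (-0.24 each time). The other 7 calls held under every alternative run.

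Some markers of root, shoot and xylem were called lower in the same comparison, where 21.0% of all genes tested were called lower and 17.4% higher. Nothing is read from the marker counts. Adjusted p-values here and for later lists record what the fit returned, since the lists were chosen with results of these data known. Of 7 root markers 4 fell and 0 rose, and the summed level of all 7 was 66.3% of Col-0. The 4 were RHS19 at -1.07 (limma adjusted p = 3.0e-04), PRP3 at -0.80 (limma adjusted p = 4.6e-04), EXP7 at -0.78 and COBL9 at -0.46. WER at 0.58, CASP1 at -0.06 and PHT1;1 at -0.18 were without a call. Most of the drop in the sum came from PRP3 (mean 2937 in Col-0 and 1689 in hac1hac5) and RHS19 (1181 and 560.5), so it does not describe all 7 alike. Of 4 shoot markers 1 fell, the Rubisco small-subunit gene RBCS2B (-1.37, limma adjusted p = 2.2e-04), and the sum was 72.9% of Col-0. Of 6 secondary wall and xylem markers 3 fell and 0 rose, led by the cysteine protease gene XCP2 (-0.75, limma adjusted p = 0.0017), with the sum at 76.0%. Without the second Col-0 or the first hac1hac5 library, and with total scaling, 1 of the 3 xylem calls remained, and without the first Col-0 library 2. Total scaling called 3 of the 4 shoot markers lower, as did leaving out either med8med25 library. None of the markers in these lists was at 0 in any library. Their part in the beta-tubulin decrease was not tested.

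Setting med8med25 beside Col-0 addresses the Mediator subunits. The pool as a whole was about as large as in the wild type, at 57640 and 48760 normalized counts against 54330 and 57460, or 95.2% of the Col-0 mean. A decrease was called for TUB6 and for no other member (1 of 9, beside 14.3% of all genes tested called lower, 12.3% higher and 26.6% in either direction, and 17.8% lower among genes in the range of the members), and nothing is read from that count. The median log2 change was -0.01 for the members and 0.00 for all genes tested.

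TUB6 had 11760 and 12240 normalized counts in the Col-0 libraries against 7884 and 6670 in those of med8med25, a log2 change of -0.73 (SE 0.09), or 1.65-fold lower. Both mutant libraries lay below both wild-type libraries, as in 33.2% of all genes tested. The call held under every alternative run, with log2 changes from -0.85 to -0.57. In hac1hac5 the same gene stood at 6949 and 6629, within the range of the med8med25 libraries or just below it. The comparisons of each mutant with the wild type share the Col-0 libraries.

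TUB4 showed the opposite sign. It was at 15170 and 13040 in med8med25 against 11650 and 12130 in Col-0 (log2 change 0.24, SE 0.10), above both wild-type libraries but not called. TUB9 (3701 and 3127 against 2930 and 3142; 0.16, SE 0.09) and TUB7 (3942 and 2960 against 2805 and 3075; 0.22, SE 0.13) overlapped the wild type and were not called. The first med8med25 library held the higher value in each of these genes. TUB4, TUB7 and TUB9 were called higher with total scaling (0.40, 0.38 and 0.32) and without the second med8med25 library (0.35, 0.42 and 0.29).

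The remaining members overlapped the wild type. TUB8 was at 3189 and 2688 in med8med25 (log2 change 0.02, SE 0.09) and TUB1 at 589.7 and 518.7 (-0.02, SE 0.10). TUB2 was at 8357 and 7175 (-0.01, SE 0.10), TUB3 at 7731 and 6639 (-0.09, SE 0.11), and TUB5 at 7084 and 5946 (-0.14, SE 0.10). Each of these 5 genes had its wild-type values inside or overlapping the span of the mutant libraries. TUB5 was called lower without the first med8med25 library (-0.27).

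Some root markers and all xylem markers were called higher in this genotype. Of all genes tested 12.3% were called higher and 14.3% lower, and nothing is read from the marker counts. Of 7 root markers 3 rose and 0 fell, with the Casparian strip gene CASP1 at 0.74 (limma adjusted p = 2.2e-04), and the sum was 141% of Col-0, while RHS19 was at -0.17 without a call. All 6 secondary wall and xylem markers rose, with XCP1 at 0.80 (limma adjusted p = 0.0024), and their sum was 152%, but 3 of these calls remained without either Col-0 library. Of 4 shoot markers 1 fell, RBCS2B (-0.86, limma adjusted p = 0.0046), though not without the second Col-0 library, and the sum was 70.2%. The part of all these markers in the beta-tubulin values was not tested.

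**Figure D2:**
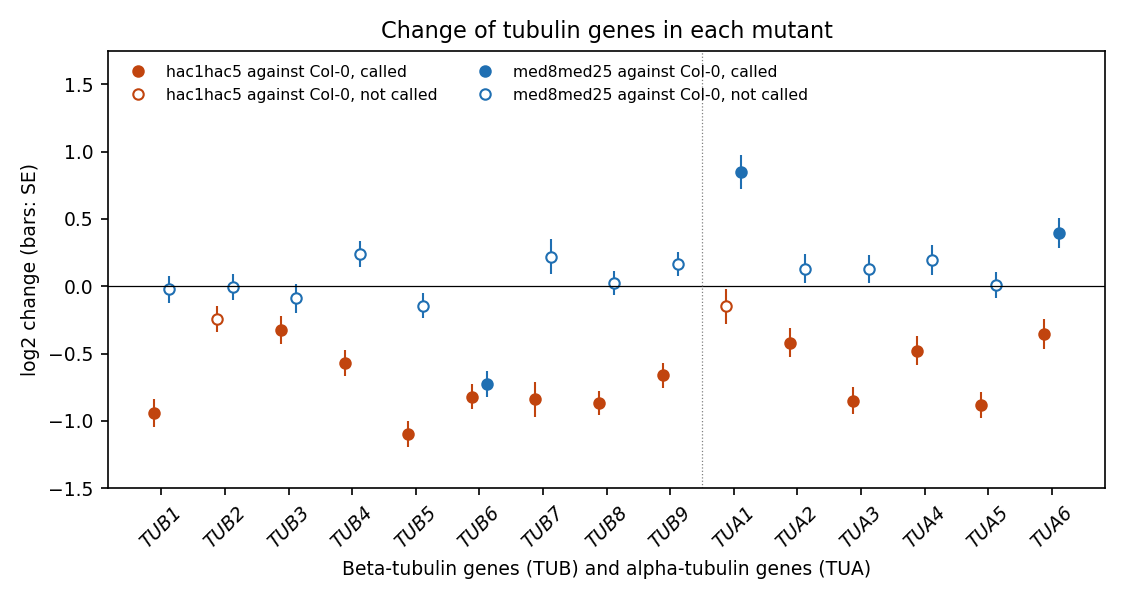
Log2 change against Col-0, with SE bars, for 9 beta-tubulin (TUB) and 6 alpha-tubulin (TUA) genes in hac1hac5 (orange) and med8med25 (blue). Filled points passed an adjusted p of 0.05 in the fit across all genes. TUB6 is the one gene whose points lie together well below 0 for both mutants, at -0.82 and -0.73.

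Set directly against each other, med8med25 had higher levels than hac1hac5 in 6 of 9 members, where 20.9% of all genes tested were called higher, 20.5% lower and 41.4% in either direction, with 29.1% higher among genes in the range of the members. The 6 were TUB7 (log2 difference 1.06), TUB5 (0.95), TUB1 (0.92), TUB8 (0.89), TUB9 (0.82) and TUB4 (0.81). Libraries of the 2 mutants overlapped for TUB6 alone among the 9 members. Those of TUB2 (lowest 7175 in med8med25, highest 6924 in hac1hac5) and TUB3 (6639 and 6561) lay close without overlap. Of all genes tested 35.2% had both med8med25 libraries above both hac1hac5 libraries, and nothing is read from the members' counts. TUB6 differed by 0.10 (SE 0.09), and TUB2 and TUB3 by 0.24 each (SE 0.10 and 0.11), without a call. Without the second med8med25 library all 9 were called higher, with TUB6 at 0.22.

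The make-up of the pool, given as the percent of the summed beta-tubulin level per kb, is free of any factor common to a library. TUB6 made up 21.1% and 20.8% of the pool in Col-0, 17.9% and 18.6% in hac1hac5, and 13.3% in both med8med25 libraries. TUB4 went from 22.9% and 22.6% in Col-0 to 28.0% and 28.4% in med8med25, and was at 23.6% and 23.5% in hac1hac5. These shares overlapped between no 2 genotypes.

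In hac1hac5 the pool shifted towards TUB2 and TUB3. TUB2 was at 13.9% of the pool in both Col-0 libraries and at 18.2% and 17.9% in hac1hac5, and TUB3 went from 13.3% and 13.6% to 17.1% and 16.0%. TUB5 went the other way, from 12.1% and 12.3% to 8.7% and 8.9%. The libraries of the genotypes did not overlap in any of these shares. In med8med25 TUB2 (14.4% and 14.6%), TUB3 (13.2% and 13.4%) and TUB5 (11.6% in each library) stayed within 1 percentage point of the wild type. TUB1 was near 1% everywhere, at 1.1% in Col-0 and 0.8% and 0.9% in hac1hac5.

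**Figure D3:**
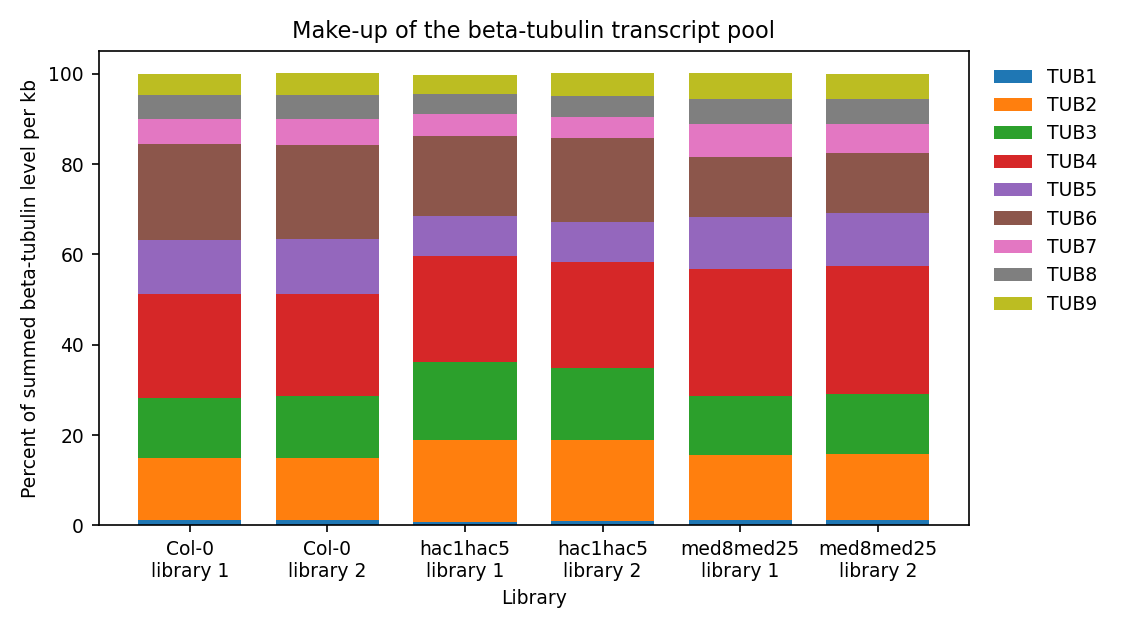
Percent of the summed beta-tubulin level per kb of exon held by each gene, with 1 stacked bar per library. The brown TUB6 segment is 21.1% and 20.8% in Col-0 and 13.3% in each med8med25 library, and the orange TUB2 segment is widest in hac1hac5.

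Members also moved together between libraries of 1 genotype. All 9 were higher in the second Col-0 library than in the first (median log2 difference 0.08), 8 of 9 were lower in the second hac1hac5 library (median -0.09), and all 9 were lower in the second med8med25 library (median -0.24). Over 16430 genes with a mean of at least 100, the corresponding medians were 0.01, 0.01 and -0.01. The 6 alpha-tubulin genes had medians of 0.08, -0.13 and -0.28. The tubulin genes of 1 library are not independent measurements of its genotype.

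The promoters of TUB5 and TUB6 are shown because the former had the largest decrease in hac1hac5 with little change in med8med25, while the latter was lower in both. Each window is the 250 bases before the RefSeq transcript start in TAIR10.1, 5′ to 3′ on the gene's strand. Capitals mark matches on either strand to any of 7 motifs: the TATA box TATAAA, the G-box CACGTG, the telo-box AAACCCTA, the site II cores TGGGCC and TGGGCT, the cold-response core CCGAC and the repeat GAGAGA. No motif contains another.
TUB5 (chr1:6940833-6941082, minus strand): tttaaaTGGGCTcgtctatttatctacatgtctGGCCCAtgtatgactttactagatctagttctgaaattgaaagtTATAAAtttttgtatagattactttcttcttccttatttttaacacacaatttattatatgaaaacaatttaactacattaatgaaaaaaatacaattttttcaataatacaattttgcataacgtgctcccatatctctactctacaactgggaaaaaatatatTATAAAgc
TUB6 (chr5:3963625-3963874, minus strand): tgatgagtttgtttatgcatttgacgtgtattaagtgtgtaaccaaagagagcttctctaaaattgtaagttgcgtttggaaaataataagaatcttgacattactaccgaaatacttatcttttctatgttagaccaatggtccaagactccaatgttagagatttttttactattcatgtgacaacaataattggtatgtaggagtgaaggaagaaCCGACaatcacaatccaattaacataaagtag

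No motif was found in all 9 windows. TATAAA was in 4 members (TUB5, TUB7, TUB8 and TUB9) and in 47.3% of 27443 promoters of protein-coding genes. TGGGCC was in 3 (TUB2, TUB3 and TUB5) and in 13.7% of all promoters. CCGAC was in TUB6 alone among the members and in 12.0% of all promoters. TGGGCT was in TUB5 alone (12.3% of all promoters), CACGTG and GAGAGA were in TUB7 alone (6.5% and 20.6%), and AAACCCTA was in no member (4.5%). These are matches of letters in short windows and describe the sequences only.

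Alpha-tubulin is the partner in the dimer. Its counts and those of the lists that follow stand beside the shares over all genes tested. These were 21.0% called lower and 17.4% higher in hac1hac5, and 14.3% and 12.3% in med8med25. Of the 6 alpha-tubulin genes 5 fell and 0 rose in hac1hac5, with a median log2 change of -0.45. TUA5 had 3495 and 3715 normalized counts in the Col-0 libraries against 2030 and 1890 in those of hac1hac5 (-0.88, SE 0.10, limma adjusted p = 2.3e-04), and TUA3 was at 4244 and 4689 against 2465 and 2488 (-0.85, SE 0.10, limma adjusted p = 3.9e-04). TUA3 and TUA5 share 612 of their 50-base windows, so their levels are not fully separate. TUA4 (-0.48, limma adjusted p = 0.0089), TUA2 (-0.42, limma adjusted p = 0.016) and TUA6 (-0.35, limma adjusted p = 0.037) fell by less, and these calls were lost in 2, 4 and 6 of 15 alternatives, leaving out a Col-0 or hac1hac5 library among them. With total scaling, or without the first Col-0 library, 3 of the 6 were called lower, and 2 without the second Col-0 or second hac1hac5 library.

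In med8med25 2 of the 6 alpha-tubulin genes rose and 0 fell. TUA1, known as a pollen-type isoform, was at 3324 and 2569 in med8med25 and at 1622 and 1624 in Col-0 (log2 change 0.85, SE 0.13, limma adjusted p = 0.0023). It was at 1337 and 1603 in hac1hac5, where it was not called (-0.15, limma adjusted p = 0.40). Exons of other annotated genes overlap 507 of the 1652 exon bases of TUA1, and without the strand setting reads there cannot be assigned. TUA6 was at 21940 and 18010 in med8med25 and at 14780 and 15460 in Col-0 (0.40, SE 0.11, limma adjusted p = 0.034). Its call was lost without either Col-0 library or the first med8med25 library and when the spread came from med8med25 and Col-0 alone (0.25 to 0.43). Total scaling called 5 of the 6 higher. Other pollen markers were near 0, with VGD1 at most at 4.533 normalized counts in any library and BCP1 too low to be tested. ACT4, an actin of pollen, was at 17.4 and 16.13 in Col-0 and fell in med8med25 (-1.59, limma adjusted p = 0.018), a call lost without either Col-0 library or the second med8med25 library.

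Lists of genes that act on tubulin or microtubules were counted beside the tubulins. In hac1hac5 the gamma-tubulin ring, which seeds new microtubules, had 1 lower of 7, its targeting subunit NEDD1 (-0.25, limma adjusted p = 0.044). That call was lost in 8 of 15 alternatives, and 0 of the 7 were called in med8med25. The folding list, whose proteins fold and assemble tubulin dimers, had 2 lower of 8 in hac1hac5. They were TFCD (-0.36, limma adjusted p = 0.0060) and TFCA (-0.31, limma adjusted p = 0.025), neither of them called with total scaling. Both calls did not hold together without either Col-0 library or without the second hac1hac5 library. In med8med25 TFCA (-0.31, limma adjusted p = 0.034) and ARL2 (-0.51, limma adjusted p = 0.016), a small GTPase of the same pathway, fell. Neither was called with total scaling or without either Col-0 library. On leaving out any other library the calls of TFCA and ARL2 did not both hold.

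Microtubule-associated proteins had 7 lower and 0 higher of 22 in hac1hac5 and 1 lower and 2 higher in med8med25. Of all genes tested 21.0% were called lower and 17.4% higher in hac1hac5, and 14.3% and 12.3% in med8med25. Nothing is read from these counts. Total scaling gave 4 lower and 3 higher in hac1hac5, and 1 lower and 7 higher in med8med25. In hac1hac5 the 7 lower calls became 4 without the first Col-0 library or either hac1hac5 library, and 2 without the second Col-0 library. In med8med25 the 2 higher calls became 0 and 1 without the first and second Col-0 library, and 3 were lower without the first med8med25 library. PCAP1, a plasma-membrane protein that destabilizes microtubules, had 20240 and 20350 in the wild type against 8113 and 9179 in hac1hac5 (-1.23, SE 0.15, limma adjusted p = 3.4e-04). WDL1, of the WAVE-DAMPENED2 family, fell in hac1hac5 (-0.50, limma adjusted p = 7.9e-04) and in med8med25 (-0.97, limma adjusted p = 6.5e-05). WDL3, of the same family and known from hypocotyl elongation, was lower in hac1hac5 (-0.41, limma adjusted p = 0.038) and higher in med8med25 (0.56, limma adjusted p = 0.016), and both calls were lost without either Col-0 library. MAP65-5, a microtubule bundling protein, rose in med8med25 (0.82, limma adjusted p = 0.013), again not without either Col-0 library.

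Kinesins had 1 lower of 9 in each mutant. In hac1hac5 this was FRA1, a motor tied to wall deposition (-0.28, limma adjusted p = 0.021, not called with total scaling). In med8med25 the lower kinesin was TES, a motor of cytokinesis in pollen formation (-0.59, limma adjusted p = 0.0046), a call lost without the second Col-0 library. The list of mitosis and cytokinesis genes, which includes cyclins and kinases of the dividing cell, had 1 higher and 0 lower of 10 in hac1hac5, the cytokinesis syntaxin gene KN (0.40, limma adjusted p = 0.023), and 0 called in med8med25, with medians of 0.20 and -0.12. KN was not called without either Col-0 library or the first hac1hac5 library. Total scaling called 3 of the 10 higher in hac1hac5.

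Primary wall cellulose synthesis, the process that cortical microtubules guide, had all 4 of its genes lower in hac1hac5 and 0 of 4 called in med8med25. CESA1, a catalytic subunit of the synthase, had 17600 and 18770 in the wild-type libraries, against 11140 and 12170 for hac1hac5 and 20170 with 14580 for med8med25. Its log2 change in hac1hac5 was -0.64 (SE 0.14, limma adjusted p = 0.0085). CESA3 (-0.56, limma adjusted p = 0.0091), CSI1, which tethers the synthase to microtubules (-0.42, limma adjusted p = 0.034), and CESA6 (-0.41, limma adjusted p = 0.017) also fell. None of the 4 was called without the second Col-0 or the first hac1hac5 library, 2 were without the first Col-0 or the second hac1hac5 library, and total scaling called 3. In med8med25 3 of the 4 were called lower without the first med8med25 library.

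The other cytoskeletal family, actin, had 6 of 8 genes lower and 0 higher in hac1hac5 (median log2 change -0.43), and 1 higher and 2 lower in med8med25. The 6 lower calls became 3 without either Col-0 library and 4 with total scaling or without the second hac1hac5 library, and the 3 calls in med8med25 became 0 without either Col-0 library. ACT7, the main actin of growing tissue, had 10070 and 10370 in the wild-type libraries, against 6683 and 6402 for hac1hac5 and 10780 with 9634 for med8med25 (-0.64 in hac1hac5, SE 0.08, limma adjusted p = 5.0e-04). ACT11 fell in hac1hac5 (-1.18, limma adjusted p = 0.0036) and rose in med8med25 (0.95, limma adjusted p = 0.015), the latter call being lost without either Col-0 library. ACT1 fell in hac1hac5 (-0.48, limma adjusted p = 0.0027).

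**Figure D4:**
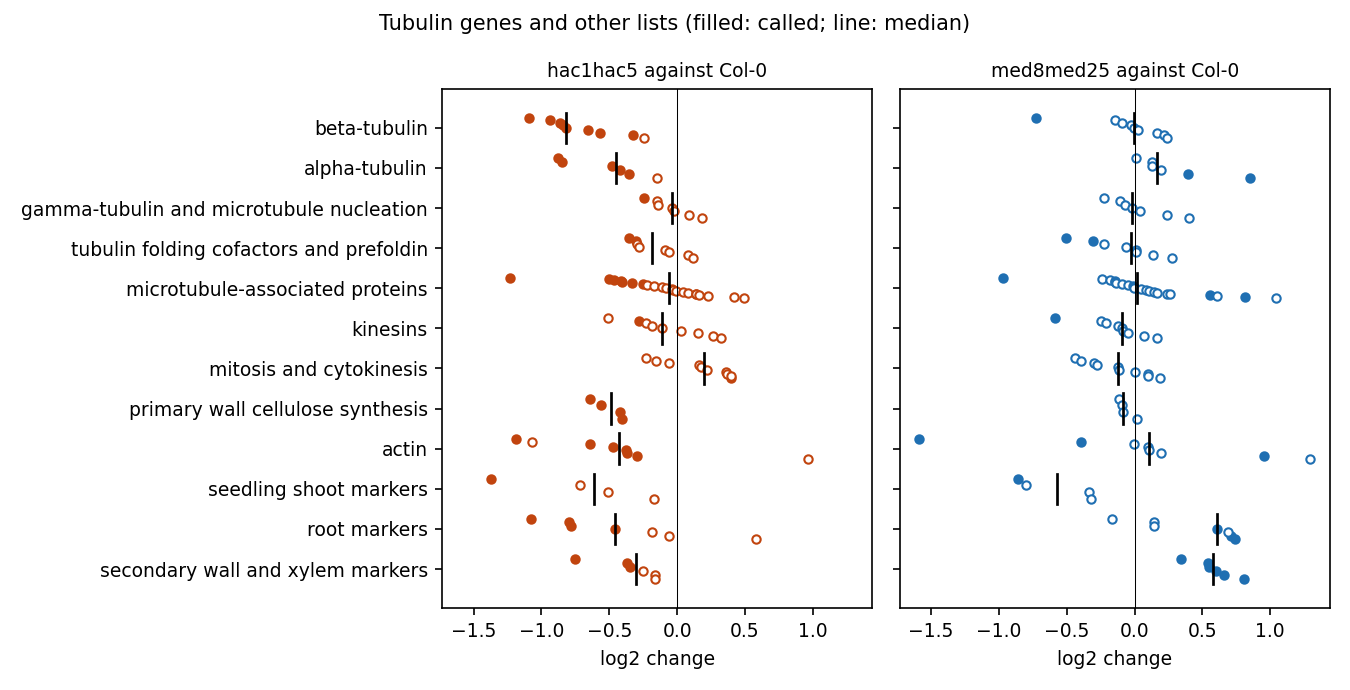
Log2 change against Col-0 of every tested gene in 12 lists, for hac1hac5 (left) and med8med25 (right), with filled points for genes that passed an adjusted p of 0.05 and a black line at the list's median. In hac1hac5 the medians of beta-tubulin (-0.82), alpha-tubulin (-0.45), cellulose synthesis (-0.49) and actin (-0.43) lie below 0. So do those of the shoot (-0.61), root (-0.46) and xylem (-0.30) markers. That of mitosis and cytokinesis is 0.20, and the remaining lists lie between -0.19 and -0.04.

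Across the 6 libraries the summed beta-tubulin level was most closely followed by AT2G20360 (Pearson r = 0.9985), AT1G12330 and the SKU5-like gene SKS4 (0.9983 each), the oligosaccharyltransferase gene STT3B (0.9977) and AT3G50685 (0.9976), among 16415 genes with a mean of at least 100, the tubulin genes of both families left out. SKS4 had 2599 and 2820 in the wild-type libraries, against 1408 and 1263 for hac1hac5 and 2715 with 2184 for med8med25. The 6 points fall into 3 genotypes and share the scaling of their library, so the likeness is a description. TUB5 was most like the starch synthase gene SS1 (0.999), AT3G05625 and PGP1 (0.9977 each), and TUB2, the member that changed least in hac1hac5, was most like AT2G33320 (0.9969), AT3G07480 (0.992) and the vascular receptor kinase gene PXY (0.9909).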

How the data were processed

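The authors deposited 1 table with a normalized signal per gene and library. HISAT2, featureCounts and edgeR, with build TAIR10, are named in the submitters' processing notes; versions, annotation, strand setting and handling of multi-mapping reads are not stated there. The deposited signal was equal, for 100% of 195288 values within a relative difference of 1e-06, to whole reads adjusted by quantiles to a common library of 32.6 M reads, and the recovery was tested on simulated data. Because the values are a signal, limma-trend (limma 3.58.1, R 4.3.3) was run on log2(value + 1), on which all log2 changes stand, on the 23898 genes that reached 1 in 2 or more libraries. Genotype was the only term, all 6 libraries shared the spread (3 residual and 5.3 prior degrees of freedom), tests were two-sided and Benjamini-Hochberg adjusted over all genes, and genes were called at an adjusted p under 0.05. The fit was tested on simulated counts.

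The members and the 13 other gene lists were chosen with earlier results of these data known. Adjusted p-values printed for list genes therefore record what the fit returned and are no independent support. Of 111 list entries 2 (GCP2 and TFCB) were dropped because the TAIR10.1 RefSeq gene table did not pair ID and name. Genes of other lists were named if called in either comparison with Col-0, up to 4 per list by size of change, and the genes most like the family by Pearson correlation. Windows, identities and promoters were computed from the TAIR10.1 genome with Biopython 1.88. Alternatives were the pseudocount, the filter, the scaling, the replicate block, the genotypes sharing the spread, limma voom on recovered reads and leaving out each library.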

Additional observations from a re-analysis of the deposited data

How the results depend on the processing

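With total scaling the median log2 change of all genes moved from -0.02 to 0.16 in hac1hac5 and from 0.00 to 0.15 in med8med25, and that of the beta-tubulin genes from -0.82 to -0.64 and from -0.01 to 0.15. The share of higher calls among all calls went from 45.3% to 67.7% and from 46.1% to 72.6%. Genes called lower in hac1hac5 then numbered 2874 (against 5010), genes called in med8med25 5258 higher and 1989 lower (against 2929 and 3421), and 3 beta-tubulin genes were called higher in med8med25. Leaving out 1 library gave 2587 to 4826 higher and 2616 to 5841 lower calls in hac1hac5, and 1129 to 3174 higher and 1430 to 3703 lower in med8med25, lowest without the second Col-0 library, while leaving out the first gave 2745 higher and 2843 lower, and 1231 and 1475. A genotype left with 1 library is assumed to vary like the others. Beta-tubulin calls then ranged from 7 to 9 lower in hac1hac5, 0 to 3 higher and 1 to 2 lower in med8med25, with 2 lower without the first and 3 higher without the second med8med25 library. Of 405 recomputed changes of single members 387 kept their direction where called and their side of the threshold. The call was lost in 5 (all TUB3 in hac1hac5) and gained in 13, and 0 reversed with a call. Changes without a call did switch sign under some alternatives. These were TUB1, TUB2, TUB3, TUB5 and TUB8 in med8med25 against Col-0, and TUB6 between the mutants. Of 1170 recomputed counts of other lists 152 moved by over 1.5 times.

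Same-numbered libraries did not deviate together (r = -0.018, -0.147 and -0.249 between Col-0 and hac1hac5, Col-0 and med8med25, and hac1hac5 and med8med25). With the replicate block 3736 genes were higher and 4498 lower in hac1hac5 and 2438 and 2919 in med8med25, with 8 and 1 beta-tubulin genes lower. Crossing the med8med25 numbers, chosen after seeing the data, gave 4241 and 5120, and 3169 and 3563. The order of the 9 genes per length in Col-0 was the same in each Col-0 library alone. Scaling could not have changed it, because a factor common to a library leaves the order of its genes as it is. Depth limits TUB1 most, with 329 to 567 reads per library.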
